A study of Mus musculus with 6 samples.

Results

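The autophagy and mitophagy machinery examined here is described over 39 genes of a list of 40, taken by symbol from a table of 14327 genes. All 39 had a mean of at least 1 FPKM (fragments mapped to a gene, scaled for its length and for the size of the library) over the libraries and were tested with the 11596 genes that passed this filter.

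The libraries came from neurospheres, suspended clusters of stem and progenitor cells of the brain, raised from hippocampus of newborn (P0) mice with the growth factors EGF and bFGF. The groups were 3 libraries labelled cKO, for conditional knockout of Slc22a17, a cell surface receptor of the lipocalin 2 iron carrier, and 3 WT libraries. The sources used here do not give the strain, the Cre driver, the deleted exons, the number of animals or their sex. The labels do not call the replicates independent animals or cultures, so the p-values reflect library-to-library spread that could be technical.

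Macroautophagy encloses cytoplasm in a double membrane and delivers it to the lysosome. The ULK kinase complex starts the process, a class III phosphatidylinositol 3-kinase complex marks the membrane with its lipid, and lipid-transfer proteins let the membrane grow. Conjugation enzymes then attach the ATG8 proteins (LC3 and GABARAP families) to the membrane lipid phosphatidylethanolamine. Cargo receptors bridge ubiquitin-tagged or other cargo to ATG8, and in mitophagy proteins such as PINK1 and FUNDC1 mark mitochondria for this route. In neural stem cells of mice, autophagy is known to act in the upkeep of the stem cell pool.

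The transcript of Slc22a17 itself was not lost in the libraries labelled cKO. It gave 164, 166 and 187 FPKM in the cKO-labelled libraries, against 181, 169 and 204 FPKM in the WT libraries (replicates 1 to 3, an order kept throughout). The groups overlap. The log2 fold change was -0.10 (adjusted p = 0.707 in limma, and p = 0.5 in a two-sided exact permutation test whose smallest possible p is 0.1), and the level in the libraries labelled cKO was 93.4% of WT with a 95% interval of 81.6% to 107%. Every direction below is therefore one between libraries by their labels.

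Transcripts of the Y chromosome differed between the libraries. The sum of Ddx3y and Eif2s3y was 50.5, 43.8 and 51.2 FPKM in the cKO-labelled libraries, against 0.10, 0.07 and 25.9 FPKM in the WT libraries, which puts WT replicate 3 at 53.4% of the cKO mean. Group and Y-linked share cannot be told apart over all 6 libraries. Values with this share as a term in the fit, or against WT replicate 3 alone, stand beside many of the results they turn or move, but not beside all. Such a term rests largely on WT replicate 3, the only library of intermediate share. For Slc22a17 the log2 fold change was -0.45 with this term and -0.02 without WT replicate 3. Its lowest adjusted p under the alternative settings was 0.487 in limma. The stem and progenitor markers (Nes, Sox2, Fabp7, Pax6 and Vim) summed to 3012 to 3285 FPKM in the libraries labelled cKO and 3288 to 3484 FPKM in the WT libraries, and all 5 were in the table. Astrocyte markers (6 of 6 in the table) summed to 3366 to 3570 FPKM in the libraries labelled cKO and 2744 to 3815 FPKM in the WT libraries, most of it Gfap. Among them Gjb6, which encodes connexin 30, stood at 166% of WT without overlap (adjusted p = 0.103) and S100b at 137% of WT (adjusted p = 0.388). Gfap stood at 107% of WT, while Aqp4, Aldh1l1 and Slc1a3 lay lower, at 91.3%, 97.9% and 97.1% of WT. Oligodendrocyte-lineage markers (6 of 6) summed to 373 to 415 FPKM in the libraries labelled cKO and 419 to 501 FPKM in the WT libraries, of which the myelin gene Mbp stood at 63.9% of WT (adjusted p = 0.326) and Mog at 1.79 ± 0.55 FPKM in the libraries labelled cKO and 2.80 ± 0.34 FPKM in the WT libraries (adjusted p = 0.297). Neuron markers (6 of 6, of which 5 were under the filter) summed to 6.77 to 7.25 FPKM in the libraries labelled cKO and 5.19 to 5.88 FPKM in the WT libraries. Microglia markers summed to 4.71 to 11 FPKM in the libraries labelled cKO and 7.89 to 10.02 FPKM in the WT libraries, while endothelial and fibroblast markers summed to at most 0.16 FPKM in any library. In the sums of the stem, oligodendrocyte and neuron markers the groups do not overlap. The stem sums, mostly Fabp7 and Vim, come as near as 3285 and 3288 FPKM, and the oligodendrocyte sums as near as 415 and 419 FPKM. Singly, groups did not overlap in 0 of 5 stem and 1 of 6 oligodendrocyte-lineage markers (Mog, lower). Over all tested genes these shares were 7.07% higher and 10.2% lower. The neuron sum is mostly Tubb3, the 1 neuron marker that passed the filter, and its groups do not overlap. The part of these marker levels in the results below was not tested, and in bulk cultures fewer cells of a type and less RNA per cell cannot be told apart.

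Across the machinery the libraries labelled cKO held slightly more transcript than the WT libraries, but no gene of the list passed the test. Between the groups 30 of the 39 genes had a positive log2 fold change (labelled cKO over WT) and 9 a negative one, beside 44.5% positive over all tested genes. With the Y-linked share in the fit 26 were positive, beside 46.5% of all tested genes. The mean level in the libraries labelled cKO lay between 92.4% (Vmp1) and 119.5% (Map1lc3b) of WT, and for 32 genes it was within 10% of WT. The lowest p-values were those of the ATG8 genes Map1lc3b and Gabarap, the cargo receptor Sqstm1 and the lipid-transfer gene Atg2a. Initiation genes lay between 97.1% and 108% of WT.

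By limma on log2(FPKM + 1), adjusted by Benjamini-Hochberg across the tested genes, 0 of 39 genes had an adjusted p under 0.05, and the lowest was 0.248 (Map1lc3b). Over all tested genes 3 passed, or 0.0259%, of which Hmox1, the heme oxygenase that frees iron from heme, was higher in the libraries labelled cKO. At an unadjusted p under 0.05 there were 4 genes of the list with higher and 0 with lower levels, beside 4.44% of all tested genes higher and 7.82% lower. The count of 4 was 2 without WT replicate 1 or without WT replicate 2. With WT replicate 3 as the sole WT library it was 0. With the Y-linked share in the fit it was 1, the lipid kinase subunit Atg14, which is not among the 4. In 8 genes of the list (20.5%) every library labelled cKO was above every WT library and in 0 the reverse held, beside 7.07% and 10.2% of all tested genes. After quantile normalization these background shares were 9.96% higher and 8.18% lower, with the list still at 8 and 0. The median log2 fold change over the list was 0.06, and over all tested genes -0.02.

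The sizes of difference that remain possible can be read gene by gene. The 95% intervals of the 39 genes, on the FPKM + 1 scale, span 78.4% to 139% of WT in all. None of the 39 intervals reached past 1.5-fold; they are not adjusted for the number of genes.

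**Figure D1:**
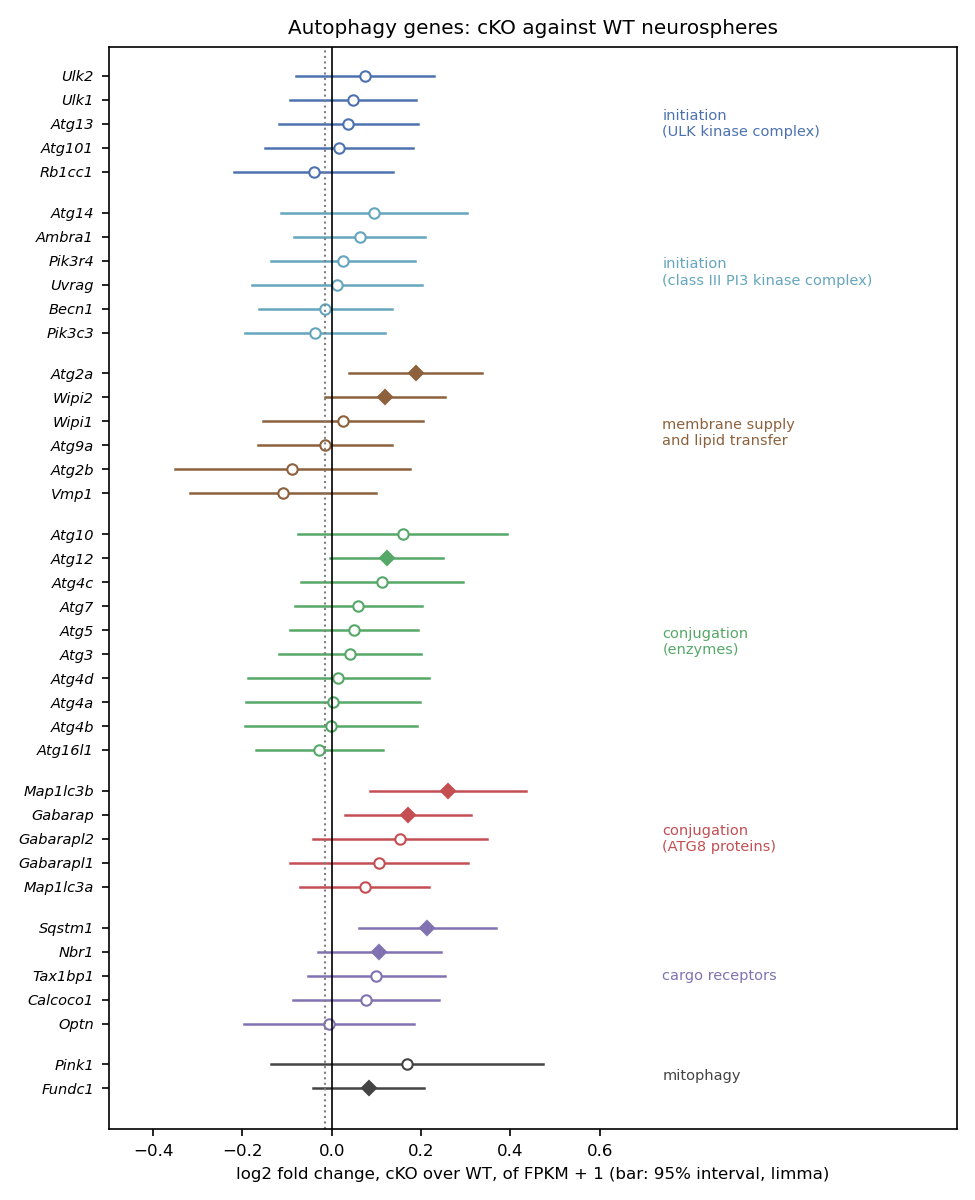
Log2 fold change (horizontal axis, of FPKM + 1, labelled cKO over WT) of the 39 genes by role, with 95% intervals from limma as bars; filled diamonds mark the 8 genes whose groups do not overlap, and the dotted line is the median of all tested genes (-0.02). The ATG8 proteins all lie right of 0, from 0.07 to 0.26, while the 11 initiation genes lie between -0.04 and 0.10.

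Levels ranged widely within the list. FPKM is scaled to transcript length, so levels of different genes can be set beside each other. Averaged over the 6 libraries, Gabarap was at 161.5 FPKM (above 96.6% of tested genes), Map1lc3b at 112 FPKM and Sqstm1 at 106 FPKM, followed by Pink1 at 96.3 FPKM and Gabarapl2 at 91.5 FPKM. The lowest was Atg10, an E2-like conjugation enzyme, at 3.89 FPKM. The cargo receptors ran from Sqstm1 down to Optn at 5.80 FPKM. Of the list, 23 genes lay above the median level of the tested genes.

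**Figure D2:**
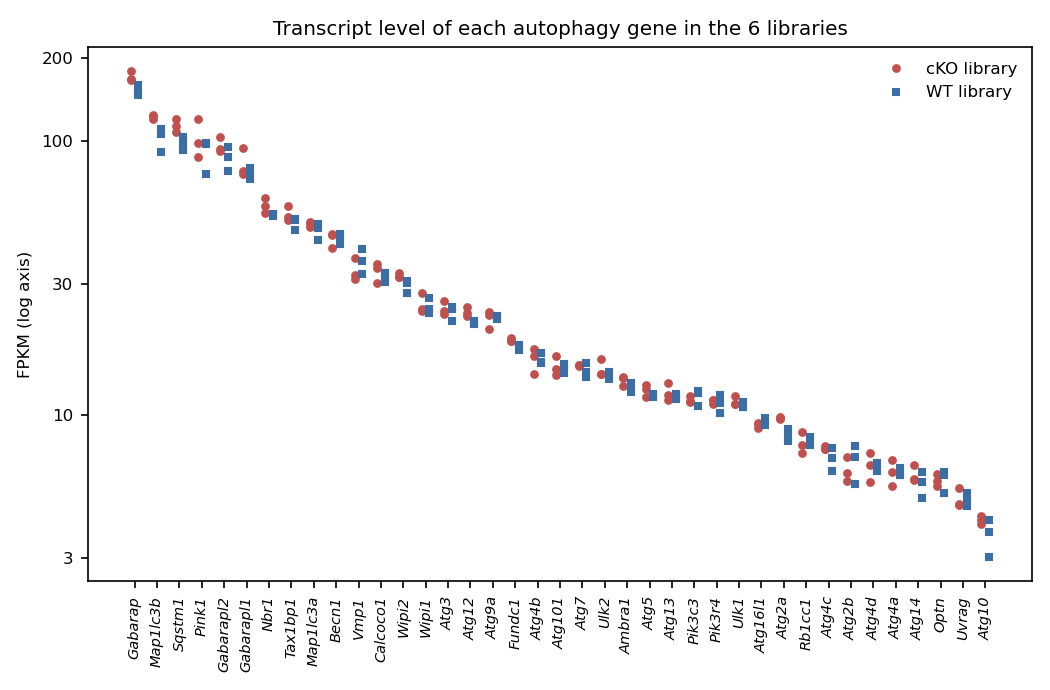
FPKM (vertical log axis) of the 39 genes in each library, ordered by mean level, with libraries labelled cKO as circles on the left and WT libraries as squares on the right of each gene. Levels run from 161.5 FPKM (Gabarap) to 3.89 FPKM (Atg10) on average, and for most genes the circles and squares overlap.

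Stretches before the transcription start are shown for Map1lc3b, Gabarap and Sqstm1, the genes above 100 FPKM whose groups do not overlap, because they carry the highest levels among the genes that differ most. Each runs 5′ to 3′ in the sense of the gene, from 250 bases before to 30 bases after the RefSeq start (GRCm38.p6). Capitals mark a match to TGACNNNGC, letters of the antioxidant response element. Map1lc3b is at chr8:121590188-121590467 on the plus strand, Gabarap at chr11:69991120-69991399 on the plus strand and Sqstm1 at chr11:50210791-50211070 on the minus strand.
Map1lc3b: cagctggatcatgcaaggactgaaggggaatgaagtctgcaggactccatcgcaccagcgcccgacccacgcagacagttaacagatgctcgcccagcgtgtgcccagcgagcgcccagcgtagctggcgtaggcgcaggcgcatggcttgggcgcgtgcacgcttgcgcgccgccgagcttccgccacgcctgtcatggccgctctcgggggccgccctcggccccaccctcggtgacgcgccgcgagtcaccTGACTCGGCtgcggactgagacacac
Gabarap: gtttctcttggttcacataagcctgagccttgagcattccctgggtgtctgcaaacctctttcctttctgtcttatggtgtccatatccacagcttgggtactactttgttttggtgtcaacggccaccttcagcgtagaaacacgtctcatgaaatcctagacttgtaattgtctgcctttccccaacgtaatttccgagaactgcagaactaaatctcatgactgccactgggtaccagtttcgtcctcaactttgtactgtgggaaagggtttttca
Sqstm1: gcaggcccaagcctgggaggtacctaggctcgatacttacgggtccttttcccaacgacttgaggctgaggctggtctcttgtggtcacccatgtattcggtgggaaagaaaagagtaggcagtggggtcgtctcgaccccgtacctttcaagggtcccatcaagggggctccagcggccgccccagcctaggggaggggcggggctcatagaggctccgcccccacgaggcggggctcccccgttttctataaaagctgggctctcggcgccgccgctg
The match in Map1lc3b begins 4 bases past the start. Neither of the other stretches holds these letters, nor does any of the 3 hold CACGTG or TCACGTG, letters bound by the TFEB family of lysosomal and autophagy gene regulators.

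Over the list, RefSeq windows from 250 bases before to 50 bases after the start were found for 33 of 39 genes, in 39 windows, and were searched on both strands. CACGTG stood in 4 windows (10.3%, in Atg14, Atg3, Atg5 and Atg7), against 7.15% of all 32851 windows and 9.96% of the windows of tested genes. The longer TCACGTG, which contains CACGTG, stood in 3 windows (7.69%, in Atg14, Atg3 and Atg7), against 3.77% of all windows and 6.03% of those of tested genes. TGACNNNGC stood in 7 windows of 5 genes (17.95%, in Atg13, Map1lc3b, Tax1bp1, Ulk2 and Vmp1), against 12.4% of all windows and 14.2% of those of tested genes. A match is a description of the letters and does not show a binding site. Of the 8 genes whose groups do not overlap, Map1lc3b alone holds any of these letters in its window, and Atg12 has no window in the table used.

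Initiation genes of the ULK kinase complex were at nearly equal levels in both groups. Of 5 genes 4 had a positive log2 fold change, the median was 0.04, and no gene had groups that do not overlap. Ulk2, a kinase that can act in place of Ulk1, stood at 15.98, 14.2 and 14.2 FPKM in the cKO-labelled libraries, against 14.4, 13.9 and 13.6 FPKM in the WT libraries (log2 fold change 0.08, adjusted p = 0.713). Its first library labelled cKO is the high one, and the other two lie within the WT range. Ulk1, the kinase that receives signals from mTORC1 and AMPK, stood at 11.8, 11 and 10.99 FPKM in the cKO-labelled libraries, against 11.1, 10.7 and 10.7 FPKM in the WT libraries (log2 fold change 0.05, adjusted p = 0.811). Atg13, the subunit that links the kinase to its scaffold, stood at 13.0, 11.8 and 11.4 FPKM in the cKO-labelled libraries, against 11.8, 11.9 and 11.5 FPKM in the WT libraries (log2 fold change 0.04, adjusted p = 0.872). For both kinases and for Atg13 the groups overlap, and cKO replicate 1 is the highest library. Atg101, which stabilises Atg13, averaged 15.1 ± 1.23 FPKM in the libraries labelled cKO and 14.9 ± 0.60 FPKM in the WT libraries (SD, n = 3 each here and below). Rb1cc1, the large scaffold also called FIP200, averaged 7.88 ± 0.71 FPKM in the libraries labelled cKO and 8.12 ± 0.29 FPKM in the WT libraries.

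The class III lipid kinase genes were likewise near WT levels. Of 6 genes 4 had a positive log2 fold change, with a median of 0.02 and 0 genes without overlap. Atg14, the subunit that directs the kinase to autophagosome formation, stood at 5.82, 6.56 and 5.81 FPKM in the cKO-labelled libraries, against 5.68, 6.20 and 4.99 FPKM in the WT libraries (log2 fold change 0.10, adjusted p = 0.726). Ambra1, which binds beclin 1, stood at 13.7, 13.6 and 12.7 FPKM in the cKO-labelled libraries, against 12.1, 13.0 and 13.1 FPKM in the WT libraries (log2 fold change 0.06, adjusted p = 0.754). Pik3c3, the catalytic subunit VPS34, stood at 11.1, 11.7 and 11.2 FPKM in the cKO-labelled libraries, against 12.04, 12.2 and 10.8 FPKM in the WT libraries (log2 fold change -0.04, adjusted p = 0.870). In each of these genes the groups overlap. With the Y-linked share in the fit, the log2 fold change of Atg14 was 0.46 (unadjusted p = 0.0423, adjusted p = 0.921) and that of Pik3c3 was 0.21. Becn1, the beclin 1 subunit, averaged 43.9 ± 2.73 FPKM in the libraries labelled cKO and 44.3 ± 2.00 FPKM in the WT libraries, and was the most abundant of the initiation genes. Pik3r4, the VPS15 regulatory subunit, averaged 11.2 ± 0.24 FPKM in the libraries labelled cKO and 11.01 ± 0.84 FPKM in the WT libraries. Its log2 fold change was 0.03, and 0.26 with the Y-linked share in the fit. Uvrag, the subunit that takes the place of Atg14 on endosomes, averaged 4.94 ± 0.42 FPKM in the libraries labelled cKO and 4.89 ± 0.26 FPKM in the WT libraries. Both complexes together had 8 of 11 genes with a positive log2 fold change and a median of 0.03.

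Genes of membrane supply and lipid transfer went both ways, with 3 positive and 3 negative log2 fold changes and a median of 0.00. Atg2a (gene identifier 329015, chromosome 19, 6241478 to 6262304 in GRCm38), which carries lipids from the endoplasmic reticulum into the growing membrane, stood at 9.64, 9.83 and 9.74 FPKM in the cKO-labelled libraries, against 8.38, 8.01 and 8.91 FPKM in the WT libraries. The groups do not overlap, and the libraries labelled cKO lie close to each other. At 115% of WT the log2 fold change was 0.19 (SE 0.065, adjusted p = 0.306, unadjusted p = 0.0198). Its paralog Atg2b averaged 6.30 ± 0.64 FPKM in the libraries labelled cKO and 6.79 ± 1.08 FPKM in the WT libraries. The log2 fold change of Atg2b was -0.09, and it turned to 0.39 with the Y-linked share in the fit (unadjusted p = 0.122 in limma). Wipi2, which reads the lipid mark and recruits the conjugation enzymes, stood at 32.9, 31.9 and 32.0 FPKM in the cKO-labelled libraries, against 30.8, 27.9 and 30.4 FPKM in the WT libraries (109% of WT, log2 fold change 0.12, adjusted p = 0.462). Here too the groups do not overlap, with WT replicate 2 the low library. Wipi1 averaged 25.4 ± 2.23 FPKM in the libraries labelled cKO and 24.9 ± 1.69 FPKM in the WT libraries. Its log2 fold change was 0.02, and 0.27 with the Y-linked share in the fit. Vmp1, a lipid scramblase of the endoplasmic reticulum, stood at 37.3, 31.4 and 32.5 FPKM in the cKO-labelled libraries, against 40.2, 32.8 and 36.4 FPKM in the WT libraries. It had the most negative log2 fold change of the list (-0.11, adjusted p = 0.683), with overlapping groups. With library weights its log2 fold change was -0.23 (unadjusted p = 0.0152, adjusted p = 0.141). Atg9a, the scramblase on the vesicles that seed the membrane, averaged 22.5 ± 1.65 FPKM in the libraries labelled cKO and 22.7 ± 0.27 FPKM in the WT libraries.

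Among the 10 conjugation enzymes 8 had a positive log2 fold change, with a median of 0.04. Atg12, the ubiquitin-like protein joined to Atg5, stood at 24.7, 23.1 and 23.5 FPKM in the cKO-labelled libraries, against 21.4, 22.1 and 21.7 FPKM in the WT libraries (109% of WT, log2 fold change 0.12, adjusted p = 0.417). It was the 1 enzyme gene whose groups do not overlap. Atg10, the E2-like enzyme that joins Atg12 to Atg5, stood at 4.02, 4.28 and 4.13 FPKM in the cKO-labelled libraries, against 3.73, 3.03 and 4.13 FPKM in the WT libraries (log2 fold change 0.16, adjusted p = 0.576). Atg4c, a protease that processes ATG8 proteins, stood at 7.50, 7.73 and 7.49 FPKM in the cKO-labelled libraries, against 7.60, 6.98 and 6.27 FPKM in the WT libraries (log2 fold change 0.11, adjusted p = 0.616). WT replicate 3 lies within the range of the libraries labelled cKO in Atg10, and WT replicate 1 does so in Atg4c. With the Y-linked share in the fit, the log2 fold change of Atg10 was -0.15 and that of Atg4c 0.40.

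The other enzymes were at similar levels in the 2 groups. Atg7, the E1-like enzyme of both conjugation routes, averaged 15.2 ± 0.070 FPKM in the libraries labelled cKO and 14.5 ± 0.86 FPKM in the WT libraries. Atg3, the E2-like enzyme for ATG8 proteins, averaged 24.5 ± 1.39 FPKM in the libraries labelled cKO and 23.8 ± 1.55 FPKM in the WT libraries. Atg5 averaged 12.3 ± 0.63 FPKM in the libraries labelled cKO and 11.8 ± 0.14 FPKM in the WT libraries. Its partner Atg16l1, which sets the site of lipidation, averaged 9.21 ± 0.22 FPKM in the libraries labelled cKO and 9.41 ± 0.28 FPKM in the WT libraries. The proteases Atg4a, Atg4b and Atg4d had log2 fold changes of 0.00, 0.00 and 0.01.

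All 5 ATG8 genes averaged higher in the libraries labelled cKO than in WT, and their median log2 fold change was 0.15. With the Y-linked share in the fit the family did not share 1 direction. Gabarapl1 was then at -0.055, Gabarapl2 at -0.18, Map1lc3b at 0.0040, Map1lc3a at 0.02 and Gabarap at 0.06. These values are imprecise, with unadjusted p-values in limma from 0.324 (Gabarapl2) to 0.981 (Map1lc3b). Map1lc3b (gene identifier 67443, chromosome 8, 121590438 to 121598760), which encodes LC3B, the usual marker protein of autophagosomes, stood at 124, 119.8 and 124 FPKM in the cKO-labelled libraries, against 106, 91.2 and 110.25 FPKM in the WT libraries. The groups do not overlap, and WT replicate 2 is the low library. Map1lc3b averaged 122 ± 2.31 FPKM in the libraries labelled cKO and 102 ± 9.99 FPKM in the WT libraries, which is 119.5% of WT with a 95% interval of 106% to 135% (log2 fold change 0.26, SE 0.076, adjusted p = 0.248, unadjusted p = 0.00865). Gabarap (gene identifier 56486, chromosome 11, 69991370 to 69994949), a member of the other ATG8 branch, stood at 168, 179 and 166 FPKM in the cKO-labelled libraries, against 149, 147 and 159 FPKM in the WT libraries. The groups do not overlap. At 113% of WT (interval 102% to 124%) its log2 fold change was 0.17 (SE 0.062, adjusted p = 0.323, unadjusted p = 0.0233).

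The other ATG8 genes had overlapping groups. Gabarapl2, also called GATE-16, stood at 103, 91.7 and 93.6 FPKM in the cKO-labelled libraries, against 87.5, 77.3 and 95.2 FPKM in the WT libraries (log2 fold change 0.15, adjusted p = 0.509). Gabarapl1 stood at 94.3, 77.8 and 75.5 FPKM in the cKO-labelled libraries, against 76.7, 72.8 and 79.4 FPKM in the WT libraries (log2 fold change 0.11, adjusted p = 0.682). Map1lc3a stood at 50.5, 49.7 and 48.4 FPKM in the cKO-labelled libraries, against 49.9, 43.5 and 47.9 FPKM in the WT libraries (log2 fold change 0.07, adjusted p = 0.699). In Gabarapl1 and Gabarapl2 cKO replicate 1 is the highest library and WT replicate 2 the lowest.

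Summed over the family, ATG8 transcripts came to 540, 518 and 507 FPKM in the cKO-labelled libraries, against 469, 432 and 492 FPKM in the WT libraries. The groups do not overlap, and WT replicate 3 lies nearest to the libraries labelled cKO. The mean sum was 522 ± 16.6 FPKM in the libraries labelled cKO and 464 ± 30.5 FPKM in the WT libraries, 112% of WT. The order of the family members by share was the same in every library. Gabarap made up 32.8% ± 1.75 of the sum in the libraries labelled cKO and 32.7% ± 1.15 in the WT libraries. Map1lc3b made up 23.5% ± 0.81 in the libraries labelled cKO and 22.0% ± 0.80 in the WT libraries, where the shares do not overlap. Map1lc3a made up 9.50% ± 0.13 in the libraries labelled cKO and 10.1% ± 0.45 in the WT libraries, again without overlap. No test was made on these sums and shares.

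**Figure D3:**
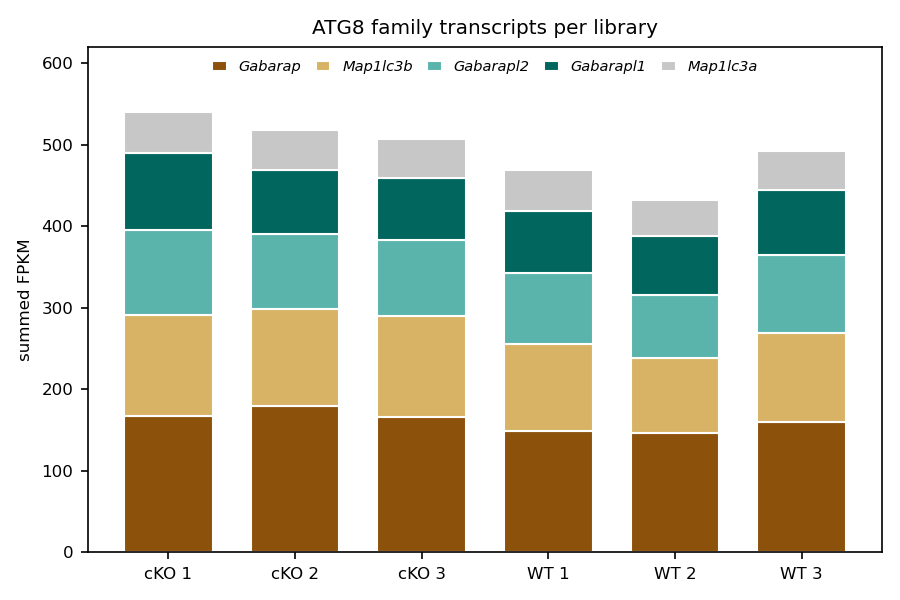
Summed FPKM of the 5 ATG8 genes (vertical axis, stacked by gene) in each library, with the libraries labelled cKO on the left. The sums are 507 to 540 FPKM in the libraries labelled cKO and 432 to 492 FPKM in the WT libraries, with Gabarap the largest band in every library.

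Cargo receptors had 4 of 5 positive log2 fold changes and a median of 0.10. Sqstm1 (gene identifier 18412, chromosome 11, 50200152 to 50210820), which encodes the ubiquitin-binding receptor p62, stood at 119.85, 108 and 113 FPKM in the cKO-labelled libraries, against 97.1, 92.4 and 104 FPKM in the WT libraries. The groups do not overlap. Sqstm1 averaged 113 ± 6.16 FPKM in the libraries labelled cKO and 97.7 ± 5.60 FPKM in the WT libraries, which is 116% of WT with a 95% interval of 104% to 129% (log2 fold change 0.21, SE 0.067, adjusted p = 0.271, unadjusted p = 0.0116). Nbr1, a receptor that works together with p62, stood at 57.7, 61.8 and 54.4 FPKM in the cKO-labelled libraries, against 53.7, 54.1 and 53.4 FPKM in the WT libraries (108% of WT, log2 fold change 0.11, adjusted p = 0.514). Its groups do not overlap either, but the gap between them is 0.558% of the WT mean. Tax1bp1, another ubiquitin-binding receptor, stood at 57.9, 52.6 and 51.3 FPKM in the cKO-labelled libraries, against 51.5, 47.3 and 51.9 FPKM in the WT libraries (log2 fold change 0.10, adjusted p = 0.596). Calcoco1, a relative of it that acts in turnover of the endoplasmic reticulum and Golgi, stood at 35.7, 34.3 and 30.2 FPKM in the cKO-labelled libraries, against 32.9, 31.1 and 30.7 FPKM in the WT libraries (log2 fold change 0.08, adjusted p = 0.723). Optn, the optineurin receptor of mitophagy and of bacteria, stood at 5.51, 5.75 and 6.07 FPKM in the cKO-labelled libraries, against 6.04, 5.21 and 6.20 FPKM in the WT libraries (log2 fold change -0.01, adjusted p = 0.984). For Tax1bp1, Calcoco1 and Optn the groups overlap. With the Y-linked share in the fit, Sqstm1 was at -0.011, Nbr1 at 0.18, Tax1bp1 at -0.016, Calcoco1 at 0.19 and Optn at -0.19.

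**Figure D4:**
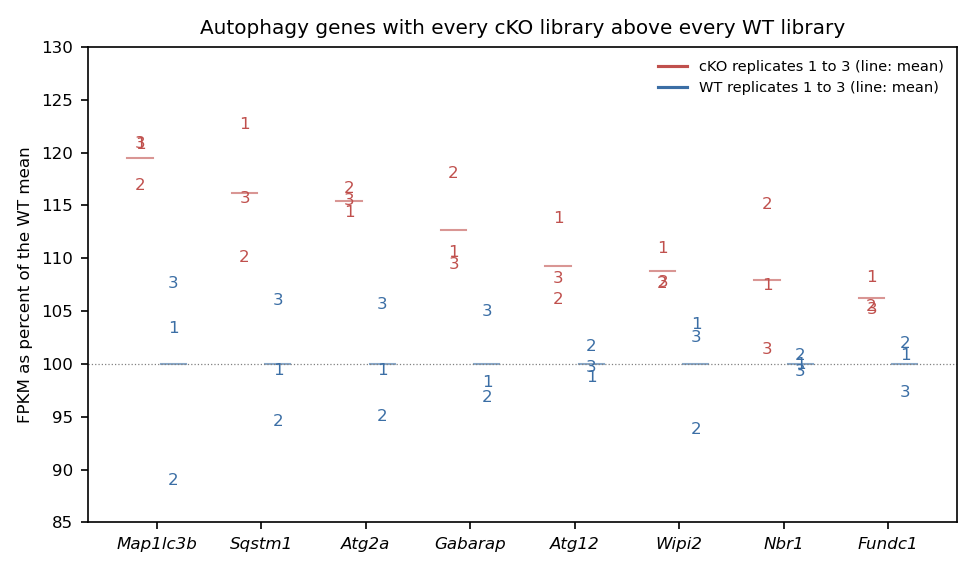
FPKM as percent of each gene's WT mean (vertical axis, which does not start at 0) for the 8 genes whose groups do not overlap, with digits for the replicate numbers, libraries labelled cKO on the left of each pair, and lines for group means. Means of the libraries labelled cKO run from 106% (Fundc1) to 119.5% (Map1lc3b). The highest WT library is replicate 3 in Map1lc3b, Sqstm1, Atg2a and Gabarap, replicate 1 in Wipi2, and replicate 2 in Atg12, Nbr1 and Fundc1.

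The mitophagy genes Pink1 and Fundc1 both had positive log2 fold changes. Pink1, the kinase that accumulates on damaged mitochondria, stood at 120.3, 87.3 and 98.5 FPKM in the cKO-labelled libraries, against 98.2, 75.9 and 97.6 FPKM in the WT libraries (log2 fold change 0.17, SE 0.13, adjusted p = 0.664). The groups overlap and the spread is wide, with cKO replicate 1 high and WT replicate 2 low. Without cKO replicate 1 the log2 fold change was 0.04, without WT replicate 2 it was 0.05, and with the Y-linked share in the fit it turned to -0.20. With replicate numbers as a term in the fit it stayed at 0.17 (unadjusted p = 0.0372, adjusted p = 0.300 in limma). Fundc1, a receptor in the mitochondrial outer membrane, stood at 19.2, 18.7 and 18.6 FPKM in the cKO-labelled libraries, against 17.9, 18.1 and 17.2 FPKM in the WT libraries. The groups do not overlap (106% of WT, log2 fold change 0.08, adjusted p = 0.582).

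In the 4 genes with an unadjusted p under 0.05, WT replicate 3 was the WT library nearest to the libraries labelled cKO. Against WT replicate 3 alone the log2 fold changes were 0.15 for Map1lc3b, 0.13 for Sqstm1, 0.10 for Gabarap and 0.12 for Atg2a, with unadjusted p-values of 0.138 to 0.338. With the Y-linked share in the fit they were 0.0040 for Map1lc3b, -0.011 for Sqstm1, 0.06 for Gabarap and 0.04 for Atg2a. For Atg12, Nbr1 and Fundc1 the values with the covariate were 0.11, 0.18 and 0.16, and for Wipi2 0.03.

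The libraries themselves were not equal across the list. Of the 39 genes, 16 had their highest value in cKO replicate 1, 9 in cKO replicate 2 and 6 in cKO replicate 3, against 3, 4 and 1 in the WT libraries. Over all tested genes the highest value fell in these libraries for 19.4%, 13.7% and 15.2% of genes, against 10.3%, 26.4% and 15.0% in the WT libraries. The lowest value fell in cKO replicates 1 to 3 for 2, 4 and 6 genes, and in the WT libraries for 3, 13 and 11 genes. Over all tested genes these shares were 20.7%, 21.2% and 15.2% in the libraries labelled cKO, against 10.6%, 20.02% and 12.3% in the WT libraries. Each library's median log2 distance from the WT means over the list was 0.10, 0.05 and 0.04 in the libraries labelled cKO, against 0.03, -0.02 and 0.00 in the WT libraries. The same medians over all tested genes were -0.01, -0.02 and -0.01 in the libraries labelled cKO, against -0.01, 0.01 and 0.00 in the WT libraries.

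**Figure D5:**
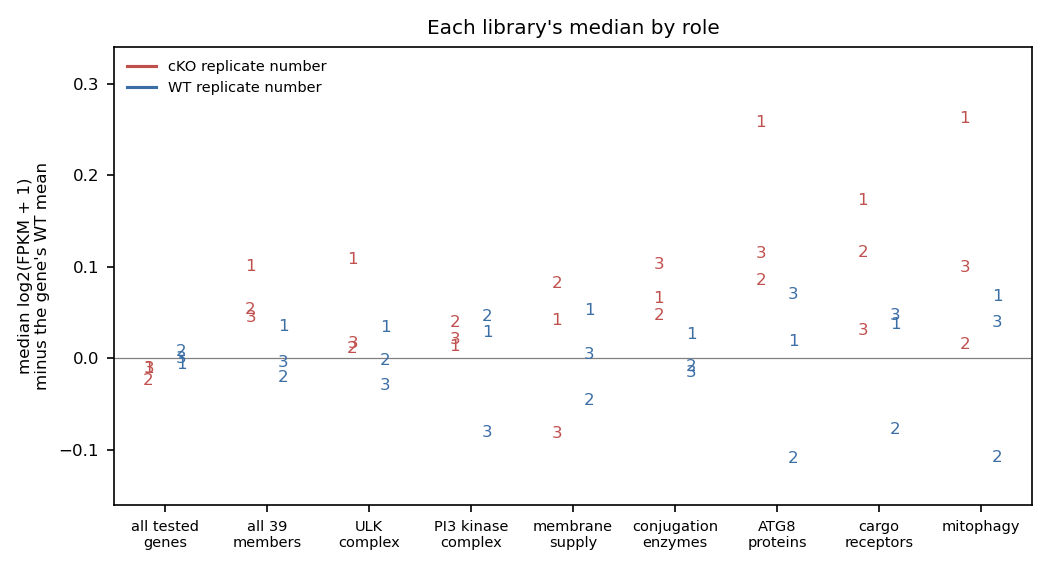
Median over genes of log2(FPKM + 1) minus the gene's WT mean (vertical axis), for each library and role, with digits for the replicate numbers and libraries labelled cKO on the left. Over all tested genes the 6 libraries lie within 0.03 of 0, while the ATG8 proteins run from 0.09 to 0.26 in the libraries labelled cKO and from -0.11 to 0.07 in the WT libraries.

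Genes around the core machinery were read from 5 further lists, and 0 genes of any list had an adjusted p under 0.05 in limma. For these 5 lists, values with the Y-linked share in the fit or against WT replicate 3 alone are not given. Unadjusted p-values under 0.05 were found for 3 genes of the fusion list, 2 of the other core genes and 1 transcription factor, all higher in the libraries labelled cKO, beside 4.44% of all tested genes higher and 7.82% lower. Groups without overlap, again all higher, were found in 3 of 15 fusion genes, 2 of 11 other core genes, 2 of 14 upstream signalling genes, 1 of 17 further receptors and 0 of 8 transcription factors, beside 7.07% of all tested genes higher and 10.2% lower. Autophagosome fusion, the step that joins the vesicle to the lysosome, had 13 of 15 genes with a positive log2 fold change and a median of 0.07. Lamp1, an abundant lysosomal membrane protein, stood at 457, 424 and 448 FPKM in the cKO-labelled libraries, against 385, 339.6 and 409 FPKM in the WT libraries (117% of WT, log2 fold change 0.23, adjusted p = 0.323), with no overlap. WT replicate 3 was the WT library nearest to the libraries labelled cKO in Lamp1. Lamp2, its partner, stood at 148, 153 and 134 FPKM in the cKO-labelled libraries, against 141, 129 and 136 FPKM in the WT libraries (log2 fold change 0.10, adjusted p = 0.618). Vps18, a tethering subunit, averaged 10.2 ± 0.21 FPKM in the libraries labelled cKO and 8.88 ± 0.12 FPKM in the WT libraries (log2 fold change 0.18, adjusted p = 0.297).

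Further mitophagy and selective autophagy receptors had 12 positive log2 fold changes among 17 tested of 19 listed, with a median of 0.05. Those with the lowest p were Usp30, a mitochondrial deubiquitinase that opposes mitophagy, at 14.8 ± 0.76 FPKM in the libraries labelled cKO and 13.3 ± 0.18 FPKM in the WT libraries, and Tex264, a receptor for the endoplasmic reticulum, at 46.5 ± 1.83 FPKM in the libraries labelled cKO and 42.4 ± 3.23 FPKM in the WT libraries. Bnip3, a mitophagy receptor induced by low oxygen, was uneven, at 29.5, 51.6 and 31.4 FPKM in the cKO-labelled libraries, against 55.2, 89.8 and 24.5 FPKM in the WT libraries (log2 fold change -0.44, adjusted p = 0.719). Within each group its replicate 2 is the highest, and WT replicate 3 is the lowest of all libraries. Its relative Bnip3l stood at 42.7, 47.5 and 36.0 FPKM in the cKO-labelled libraries, against 46.3, 52.5 and 37.7 FPKM in the WT libraries (log2 fold change -0.11, adjusted p = 0.799). Ncoa4, the receptor that delivers ferritin to autophagy and so frees its iron, stood at 49.4, 50.4 and 47.1 FPKM in the cKO-labelled libraries, against 46.6, 47.7 and 47.1 FPKM in the WT libraries (log2 fold change 0.05, adjusted p = 0.734). Its 95% interval was 95.5% to 113% of WT.

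Other core genes had 7 of 11 positive log2 fold changes and a median of 0.03, led by Tecpr1 at 17.8 ± 0.11 FPKM in the libraries labelled cKO and 15.8 ± 0.89 FPKM in the WT libraries (adjusted p = 0.333) and by Trp53inp2 at 161 ± 7.07 FPKM in the libraries labelled cKO and 145 ± 3.56 FPKM in the WT libraries (adjusted p = 0.382). Upstream signalling genes of the mTORC1 and AMPK pathways had 6 positive log2 fold changes among 14 tested of 15 listed and a median of -0.01. Among them Tsc2, an inhibitor of mTORC1, averaged 23.4 ± 0.64 FPKM in the libraries labelled cKO and 21.3 ± 1.26 FPKM in the WT libraries (adjusted p = 0.430). Ddit4, a stress-induced inhibitor of mTORC1, averaged 69.3 ± 20.4 FPKM in the libraries labelled cKO and 106 ± 50.8 FPKM in the WT libraries (log2 fold change -0.53, adjusted p = 0.565).

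Transcription factors of autophagy and lysosomal genes were split, with 4 of 8 positive log2 fold changes. Zkscan3, a repressor of autophagy genes in human cells, averaged 30.4 ± 1.79 FPKM in the libraries labelled cKO and 23.7 ± 4.54 FPKM in the WT libraries (log2 fold change 0.36, adjusted p = 0.290), with overlapping groups. Tfeb, an activator of the same kinds of genes, stood at 4.97, 6.21 and 5.17 FPKM in the cKO-labelled libraries, against 6.41, 6.15 and 6.42 FPKM in the WT libraries (log2 fold change -0.19, adjusted p = 0.440). FPKM values of transcripts give no measure of autophagic flux, which is controlled largely at the level of proteins.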

How the data were processed

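RNA of 3 libraries labelled cKO and 3 WT libraries of neurospheres was sequenced and the data processed by the BGISEQ institute, as the labels' protocols state. The authors deposited FPKM values, 1 per gene and library. The submitters' processing notes name Bowtie2 and GRCm38 (mm10). The sources used here do not give the counting tool, the annotation or a strand setting. FPKM carries no depth, and a search for values worth whole fragments left 47.8% to 62% of the low values whole at the best depth, so counts could not be rebuilt and a count model was not used.

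Values were analysed as log2(FPKM + 1), which understates fold changes of low genes, for 11596 genes that averaged 1 FPKM or more (2731 left out). Two-sided tests were made with limma 3.58.1 in R 4.3.3 (trended eBayes), and p-values were adjusted by Benjamini-Hochberg across these genes. The members and lists, the tests and the alternatives were chosen with earlier results of these data known. Named genes are, per role, the 3 of lowest p, all ATG8 genes and cargo receptors, and of each further list the 2 of lowest p with Bnip3, Bnip3l, Ncoa4, Tfeb, Lamp1 and Lamp2. The remaining listed gene is not reported here. Promoter sequences are from RefSeq, and protein sequences were not used here. Of the 39 genes, 5 overlap another protein-coding gene of the table (Becn1, Atg4a, Atg4d, Atg12 and Map1lc3b), whose reads may not be told apart. No 2 libraries were alike enough to be the same library deposited again, since 1.31% to 1.91% of values were identical in a pair. Figures were drawn with matplotlib 3.10.9.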

Additional observations from a re-analysis of the deposited data

How the results depend on the processing

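Over 18 alternative settings 0 of the 39 autophagy genes passed in any, and the lowest adjusted p of a member was 0.0811 (Sqstm1, with library weights). Over all tested genes limma called 3, and between 0 and 129 (library weights) under the alternatives. The list's median log2 fold change kept its sign in all settings, between 0.03 and 0.08. The count at an unadjusted p under 0.05 with higher levels, 4 as reported, was 0 against WT replicate 3 alone, 1 with the Y-linked share in the fit (Atg14), and 2 to 5 with a library left out, the lowest being without WT replicate 1 or WT replicate 2. With lower levels it was 1 with library weights (Vmp1). Genes without overlap were 19 higher and 1 lower against WT replicate 3 alone, beside 21.4% and 27.3% of all tested genes, and 8 to 12 higher and 0 to 2 lower with a library left out, with 2 lower without cKO replicate 1 or WT replicate 3. Over all tested genes those shares were 9.43% to 13.7% higher and 14.2% to 17.5% lower. These counts grow with fewer libraries by construction.

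Adding the Y-linked share to the fit turned the sign of 14 of the 39 log2 fold changes (35.9%, beside 42.4% of all tested genes). Among these were 6 genes whose levels are given by group means (Atg101, Rb1cc1, Atg2b, Atg9a, Atg3 and Atg16l1). The others were Ambra1 (-0.0057), Pik3c3 (0.21), Atg10 (-0.15), Gabarapl1 (-0.055), Gabarapl2 (-0.18), Sqstm1 (-0.011), Tax1bp1 (-0.016) and Pink1 (-0.20). That of Pik3c3 also turned (0.066) against WT replicate 3 alone. With a library left out, Atg13 lay between -0.015 (without cKO replicate 1) and 0.075. Optn, at -0.0063 as reported, was at 0.039 after quantile normalization, 0.0099 after median centring, and between -0.072 and 0.035 with a library left out. For these turns the cause was not tested, and FPKM without depth limits what can be said of low genes.

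Whether replicate numbers pair the libraries was not settled. Same-numbered libraries deviated from their group means with correlations of -0.04, 0.30 and 0.26, and cKO replicate 1 correlated best with WT replicate 3 (0.17). The correlations of replicates 2 and 3 were the highest of all pairs, which ran down to -0.40. With the replicate block 0 autophagy genes passed in limma, and the lowest adjusted p was 0.134 (Map1lc3b). In that fit 5 had an unadjusted p under 0.05 with higher levels, among them Pink1 (0.0372), and the median log2 fold change was 0.06. Over all tested genes 22 passed with the block, beside 3 without it. An unadjusted p under 0.05 was found for 15.0% of them with the block, beside 12.3% without it.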
